A study of Homo sapiens with 4 samples.

Results

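The voltage-gated sodium channel genes examined here are SCN1A, SCN2A, SCN3A, SCN4A, SCN8A and SCN9A, which encode pore-forming alpha subunits, and SCN2B and SCN3B, which encode auxiliary beta subunits. These 8 genes of 20163 protein-coding genes were taken as a named list, and a called NRSF/REST-binding site was assigned to a gene when any base of it lay in the gene or within 10 kb of it (GENCODE release 44 on hg19). The rule gave 8 of 5323 sites at the basal SF-1 dosage and 6 of 5059 sites at the increased dosage. These totals are those of the deposited lists and differ slightly from the paper's, as does the number of sites shared between the lists. Both libraries come from H295R/TR SF-1 cells, a human adrenocortical tumor line in which doxycycline switches on additional SF-1. The basal SF-1 library is named for its basal dosage, and the other is named for overexpressed SF-1, which was induced by doxycycline (1 mg/mL in the labels) for 3 days. The methods give the doxycycline concentration in µg/ml in place of mg/mL, so the unit is uncertain. Chromatin was immunoprecipitated with an antibody against NRSF/REST, and there is 1 library per dosage. A difference between the lists is therefore a difference between single libraries, with no replicate to set it against. Read counts are not part of the lists, so the depth is unknown, and the lists give the start, the end and an order number of each site.

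Voltage-gated sodium channels open on depolarization and carry the rising phase of the action potential in neurons and muscle. An alpha subunit forms the pore, and beta subunits are single-pass membrane proteins that tune gating and surface expression. NRSF/REST is a zinc finger repressor that keeps neuronal genes silent outside the nervous system by recruiting histone deacetylases and other corepressors. The element it recognizes, RE1, was first described in the gene of the brain type II sodium channel, SCN2A, which makes this family a reference case for the factor.

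The sequences that carry the finding are the matches to the NRSF/REST consensus inside the called sites. The consensus searched was CTGTCCNNGGTGCTG, read on either strand and allowing up to 2 mismatches among 13 fixed bases. Each sequence is from hg19, runs 5′ to 3′ in the direction of the consensus and has 4 bases before and 2 bases after it, and capitals mark fixed bases that match. The first 3 lie at chr2:167004594-167004614 (plus strand), chr2:166094994-166095014 (minus strand) and chr11:123524776-123524796 (minus strand).

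SCN1A: catcCTGTCCaaGGTaCTGaa

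SCN2A: aacgCTGTCCatGGTGCTGag

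SCN3B: gcgaCTGTCCgtGGTGCTGag

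The SCN2A and SCN3B elements match all fixed bases, and the SCN1A element has the single substitution G12A, with positions numbered from 1 where the consensus begins. SCN2A and SCN3B are identical at 16 of 21 bases, SCN1A and SCN2A at 15, and SCN1A and SCN3B at 13. The consensus runs against the direction of the gene in SCN1A and SCN2A and along it in SCN3B. Stretches of 121 bases around the elements differ in composition, with a GC content of 42.1% in SCN1A, 39.7% in SCN2A and 74.4% in SCN3B. CpG dinucleotides number 1, 3 and 16, respectively. The stretches of the alpha subunit genes, which lie in no annotated exon of their own gene, are printed to show the elements in place.

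SCN1A, chr2:167004544-167004664, plus strand: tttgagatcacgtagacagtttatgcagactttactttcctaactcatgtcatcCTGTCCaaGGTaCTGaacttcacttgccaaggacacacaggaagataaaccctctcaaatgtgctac

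SCN2A, chr2:166094944-166095064, minus strand: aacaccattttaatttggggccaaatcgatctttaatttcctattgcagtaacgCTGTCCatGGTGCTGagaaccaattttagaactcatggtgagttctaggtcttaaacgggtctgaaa

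At the basal dosage, 4 of the 8 genes had a called site (SCN1A, SCN2A, SCN8A and SCN3B), against a background of 13.9% of all protein-coding genes. At the increased dosage the same 4 genes and SCN3A had one, which is 5 of 8 against 13.6%. Among the genes between the shortest and the longest of the list (13834 to 222599 bp), 13.5% and 13.3% had a site, respectively. Long genes offer more room, and of the genes of 100 kb or longer 31.2% had a site in the basal list and 30.6% in the increased list. Of the 5 named genes that are this long, 3 and 4 had a site, respectively. SCN4A, SCN9A and SCN2B had none at either dosage. The list was drawn up with these results known, so the counts are a description of the named genes.

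**Figure D1:**
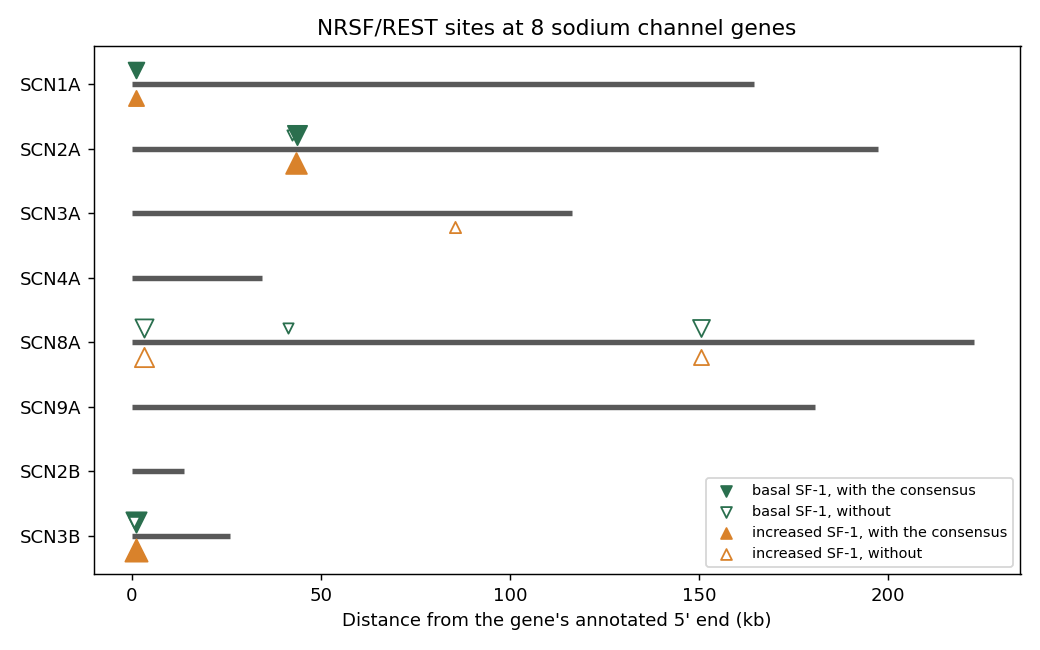
Midpoints of the called sites (triangles, size growing with width) along the 8 genes, drawn from the annotated 5′ end (kb), with basal SF-1 above and increased SF-1 below each gene. Filled triangles hold the consensus; SCN1A, SCN2A and SCN3B have a filled pair, SCN8A has open triangles only, and SCN4A, SCN9A and SCN2B have none.

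SCN1A (ENSG00000144285, chr2:166841151-167005724, minus strand) encodes an alpha subunit of the brain that inhibitory interneurons depend on, and its loss of function underlies Dravet syndrome. It had 1 site at each dosage. The basal site, chr2:167004401-167004849, is 449 bp wide and number 1583 in its list, and the site at the increased dosage, chr2:167004401-167004799, is 399 bp wide and number 1480. Both start at the same base, and the narrower one lies wholly inside the other. They lie in an intron of 3 of the 25 annotated transcripts, with the midpoint 1020 bp (basal) and 1045 bp (increased) downstream of the nearest start of a coding transcript of SCN1A. The transcript tagged as canonical starts about 20.1 kb further into the gene, so that both sites lie upstream of it. The region is also covered by the antisense gene SCN1A-AS1. The element lay 20 bp from the midpoint of the basal site and 5 bp from that of the other. SCN1A was the only gene of the 8 whose site held both the NRSF/REST consensus and a match to the SF-1 words CAAGGTCA, CAAGGACA or CAAGGCCA. The word CAAGGACA follows the consensus with 12 bases between them, at chr2:167004625-167004632, on the same strand. Any of these words, without mismatch on either strand, was found in 11.4% of all basal sites and in 11.5% of all sites at the increased dosage. Neither CAAGGTCA, which is in the paper's SF-1 mobility shift probe, nor CAAGGCCA was found in a site of the 8 genes. Besides SCN1A, the intron 12 site of SCN8A, which lacks the consensus, holds CAAGGACA at both dosages (chr12:52134360-52134367, minus strand), so 2 of the 8 basal sites and 2 of the 6 in the increased list hold a word. These sites are 399 to 549 bp wide, and the shares above are over sites of all widths (median 299 bp), not matched for width. The paper reports no significant enrichment of an SF-1-like sequence in the NRSF/REST sites. SF-1 binding at the sites with a word was not tested here.

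SCN2A (ENSG00000136531, chr2:166051503-166248820, plus strand) encodes the alpha subunit of the axon initial segment of young excitatory neurons. The basal list holds a site at chr2:166094751-166095499, 749 bp wide and number 1093, and the list of the increased dosage holds one at chr2:166094551-166095449, 899 bp wide and number 1034. They share 699 bp, which is 93.3% of the basal site and 77.8% of the other. Their midpoints lie 43622 and 43497 bp from the annotated 5′ end of the gene, in an intron of 1 long transcript of 20. Relative to the start of the canonical transcript the midpoints lie at -799 and -924 bp, and relative to the nearest coding transcript start the element lies at -909 bp, where negative values are upstream. It is 122 bp off the midpoint of the basal site but 3 bp off that of the wider site. The basal list has a second site at SCN2A, chr2:166093901-166093999, which is 99 bp wide, is number 4819 of 5323, holds no match with up to 3 mismatches and has no counterpart at the increased dosage.

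SCN3B (ENSG00000166257, chr11:123499895-123525952, minus strand) encodes a beta subunit of neurons and heart. It has the widest sites of the 8 genes, chr11:123524351-123525199 at the basal dosage (849 bp, number 753) and chr11:123524301-123525349 at the increased dosage (1049 bp, number 813). Their width percentiles are 91.9 in the basal list and 96.3 in the increased list. These are the only sites at the 8 genes that touch a coding exon, and they cover part of the first exon of the canonical transcript. The element lies in the first intron of that transcript, 527 bp downstream of the nearest coding transcript start, and in a non-coding exon of another transcript. A second basal site, chr11:123525251-123525399, is 149 bp wide and number 4986, and it lies over the start of the canonical transcript, with its midpoint 7 bp into it. It holds no match to the consensus. The wider site at the increased dosage reaches over 99 of its 149 bp, so both basal sites of SCN3B counted as shared. Merging sites within 500 bp makes a single basal site of them.

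**Figure D2:**
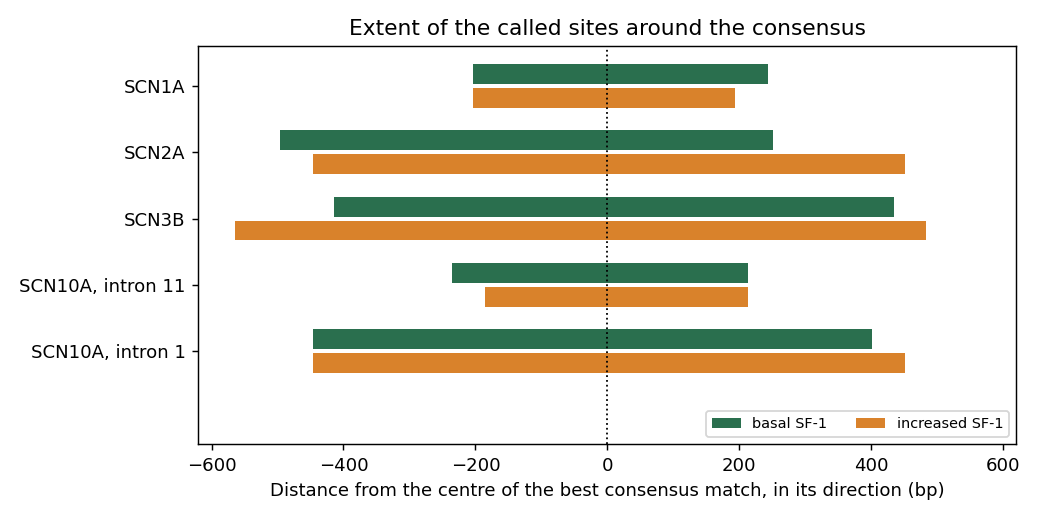
Extent of the called sites (bars) around the centre of the best consensus match (dotted line), in bp in the direction of the consensus, for each site with a match at 1 of 12 sodium channel subunit genes. In every pair the bars of both dosages cover the match, and the bar of the increased dosage is longer at SCN2A and SCN10A intron 1 (899 against 749 and 849 bp) and shorter at SCN1A and at SCN10A intron 11 (399 against 449 bp in each); at SCN3B the bar of 1049 bp overlaps a second basal site that holds no match, and the joint span of both basal sites is also 1049 bp.

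SCN8A (ENSG00000196876, chr12:51984050-52206648, plus strand) encodes the main alpha subunit of nodes of Ranvier and mature axon initial segments. It is the longest of the 8 genes and had the most sites, 3 in the basal and 2 in the increased list. The first pair is chr12:51987001-51987649 (649 bp, number 637) and chr12:51986901-51987649 (749 bp, number 608), which makes them the earliest of the 8 genes in both lists. They lie in intron 1 of the coding transcript with the longest coding sequence, with midpoints 2305 and 2255 bp downstream of its start. The second pair is chr12:52134251-52134799 (549 bp, number 1646) and chr12:52134301-52134699 (399 bp, number 1873), in intron 12 of 26. The third basal site, chr12:52025251-52025349, is 99 bp wide, number 3956, in intron 1 and without a counterpart.

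None of the SCN8A sites holds the consensus with at most 2 mismatches, so the 4 sites of both pairs are wide sites without it. Among all sites of 399 bp or more, the share that held it was 70.6% (basal) and 72.2% (increased). The closest sequence in the first pair has 3 mismatches (G3T, T4G and C6T) and lies at chr12:51987390-51987410 on the plus strand, 76 bp from the midpoint of the basal site. Sequences with 3 mismatches are common, with 854195 in the genome, of which 0.189% lie in a site of either list. SCN8A and 10 kb around it hold 69, of which 1 lies in a site. In the second pair the parts CTGTCC and GGTGCTG occur at other distances than 2 bases, with 0 or 1 mismatch in each part, in 3 overlapping arrangements with 0, 13 and 14 bases between them. The arrangement with 0 bases between them, at chr12:52134520-52134532, lies 1 bp from the midpoint of the basal site and has 1 mismatch. Parts at a distance of 0 to 20 bases other than 2, with at most 1 mismatch in each, occur in 24.8% of basal sites that lack the consensus and in 24.1% of such sites in the increased list. These sequences are shown because they are the nearest relatives of the consensus in the sites of SCN8A.

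SCN8A, intron 1: gtttCTtgCtgtGGTGCTGaa

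SCN8A, intron 12, 0 bases between the parts: CTGTCCaGTGCTG

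SCN8A, intron 12, 14 bases between the parts: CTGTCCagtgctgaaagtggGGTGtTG

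SCN3A (ENSG00000153253, chr2:165944036-166060560, minus strand) encodes the alpha subunit most abundant in the embryonic brain. Its single site, chr2:165974951-165975099, was called at the increased dosage only, is 149 bp wide and number 4248 of 5059, and lies in intron 18 of 27, away from any start of the gene. It holds no match with up to 3 mismatches and no separated parts. At the basal dosage the nearest site lay 33.3 kb from SCN3A, and that is the narrow site of its neighbour SCN2A, with which it overlaps head to head.

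SCN9A, the alpha subunit of pain-sensing and sympathetic neurons, had its nearest site 46.9 kb away at either dosage. SCN4A, the alpha subunit of adult skeletal muscle, had its nearest site about 415 kb away. SCN2B, which encodes a beta subunit linked to the alpha subunit by a disulfide bond, had its nearest about 258 kb away.

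Of the 8 basal sites, 6 overlapped a site at the increased dosage, against 64.5% of the whole basal list. In the increased list 5 of its 6 sites had a basal counterpart, against 67.9%. The sites called at a single dosage are the narrow ones of SCN2A (99 bp) and SCN8A (99 bp) at the basal dosage and that of SCN3A (149 bp) at the increased dosage. In the whole lists, sites of 149 bp or narrower had a counterpart in 10.9% (basal) and 16.0% (increased) of cases, against 99.0% and 99.6% of sites of 399 bp or wider. All 10 sites of 399 bp or wider at the 8 genes were shared. The presence of a site at 1 dosage at these genes was therefore seen for sites of a width that is mostly found in 1 list throughout the genome. The width of shared pairs moved in both directions, from 749 to 899 bp at SCN2A and from 649 to 749 bp at the first SCN8A site, but from 449 to 399 bp at SCN1A and from 549 to 399 bp at the second SCN8A site. At SCN3B the 1049 bp site of the increased list overlaps 2 basal sites, of 849 and 149 bp, whose joint span from the first to the last base is also 1049 bp. Boundaries are set in steps of 50 bp, and the spread of these widths between replicates is not known. The median width at the 8 genes was 499 bp (basal) and 574 bp (increased), against 299 bp in both whole lists.

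**Figure D3:**
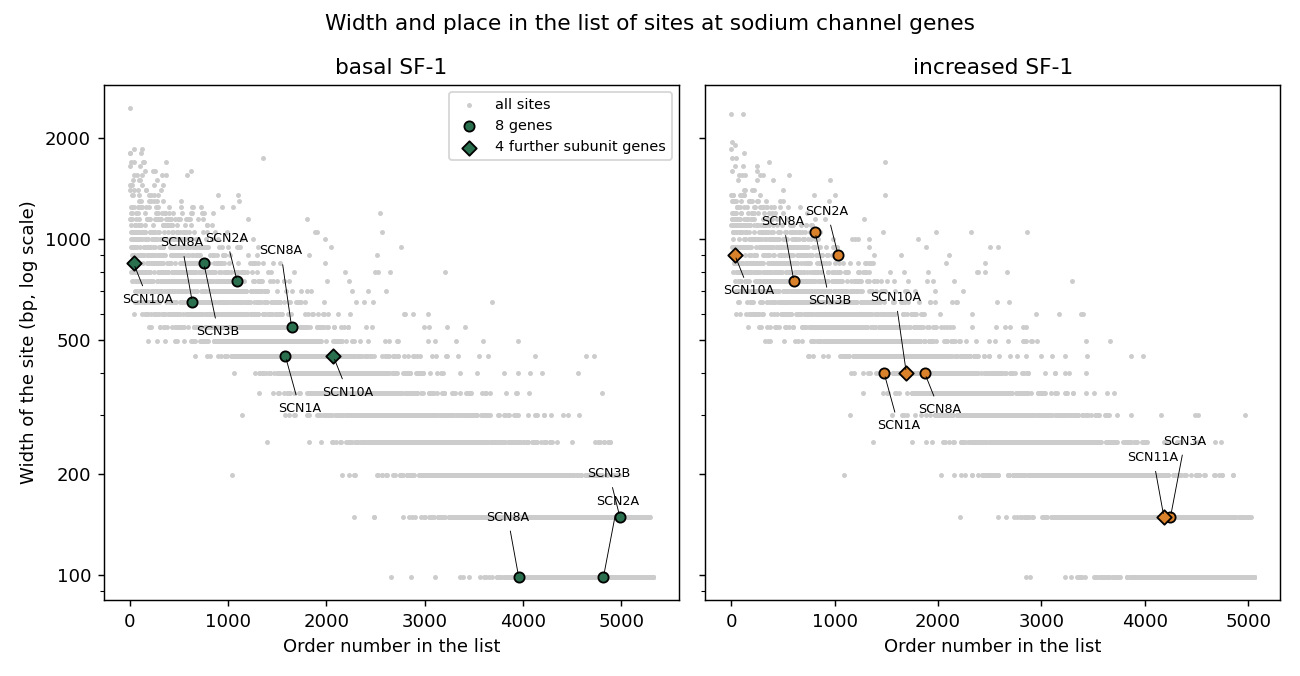
Width (bp, log scale) against order number for all sites of each list (grey), the sites at the 8 genes (circles) and those at the 4 further subunit genes (diamonds). The wide sites at SCN2A, SCN3B and the first site of SCN8A lie among the first 1093 of each list, the narrow ones of SCN2A, SCN3B, SCN3A and SCN8A at number 3956 or later, and the intron 1 site of SCN10A is number 38 and 35.

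Of the 8 basal sites, 5 had their midpoint within 2 kb of the start of a protein-coding transcript, against 15.1% of the whole list. At the increased dosage 3 of 6 did, against 15.2%. They belong to SCN1A, SCN2A and SCN3B, and in the basal list SCN2A and SCN3B count with 2 sites each. The shares of the whole lists include sites far from any coding gene. Sites at the 8 genes were picked for lying at coding genes, so part of this difference is built in. RefSeq promoters (250 bases before to 50 after each start, GRCh38.p14) were given for 5 of the 8 genes, namely SCN1A, SCN2A, SCN8A, SCN9A and SCN2B, and each of their sequences was also found in hg19. None of these stretches holds the consensus with at most 2 mismatches, and no called site overlaps them. Among all 35116 promoter sequences, 2.03% hold it. The promoters given leave out SCN3B, where a called site lies over the start of the canonical transcript. The elements of SCN1A and SCN2A lie 1040 bp downstream and at -909 bp relative to the nearest coding transcript start, outside these 300 bases.

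Of the 8 basal sites, 3 held the consensus, against 40.7% of the basal list, and 3 of the 6 sites at the increased dosage did, against 42.1%. In the whole genome there are 816 matches without a mismatch, of which 75.6% lie in a site of either list. The shares are 12.5% of 8057 matches with 1 mismatch and 0.969% of 87405 matches with 2 mismatches. Across 12 sodium channel subunit genes (the 8 and SCN7A, SCN10A, SCN11A and SCN4B) and 10 kb around them, 3 of 3 matches without a mismatch, 1 of 4 with 1 mismatch and 2 of 45 with 2 mismatches lie in a site. SCN4A has 6 matches, SCN9A has 2 and SCN3A has 2, all with 2 mismatches and none in a site. SCN8A has 7 of this kind, and each of them lies outside its called sites.

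**Figure D4:**
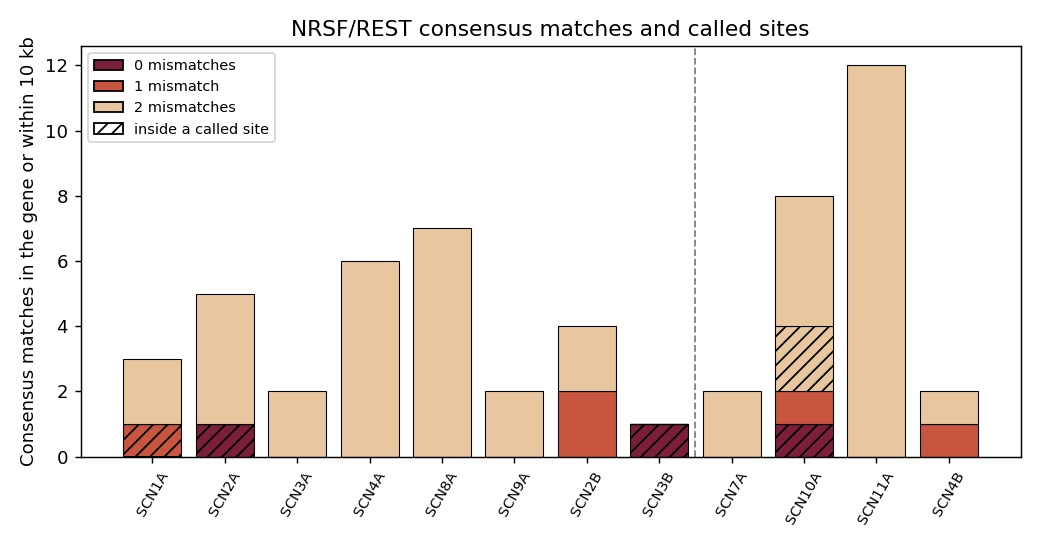
Number of consensus matches with 0, 1 or 2 mismatches in each of 12 subunit genes or within 10 kb (bars), hatched where they lie in a called site at either dosage; the dashed line parts the 8 genes from the 4 further subunit genes, and a match between SCN2B and SCN4B counts for both. SCN11A has 12 matches and no hatching, and SCN3B has 1 match, which is hatched.

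SCN2B has 2 matches with 1 mismatch and no site, whereas the element of SCN1A has 1 mismatch and a site at both dosages. These are printed beside each other because they differ in which base is changed, and they also differ at bases that are not fixed. The SCN2B matches lie at chr11:118034698-118034718, in the non-coding part of exon 4 of 4 (substitution G15C), and at chr11:118029278-118029298, downstream of the gene (substitution C5G), both on the minus strand.

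SCN1A, in a site: catcCTGTCCaaGGTaCTGaa

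SCN2B, exon 4, in no site: atctCTGTCCcaGGTGCTcag

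SCN2B, downstream, in no site: tactCTGTgCctGGTGCTGat

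Over the genome, matches with the single substitution G12A lie in a site in 57.0% of 151 cases, the highest share of any single substitution. The share is 8.89% of 135 for G15C and 0.100% of 1000 for C5G. Repeated copies of a sequence are not separated in these counts. Taking 1 match from each of the 594 basal sites that hold a match without a mismatch, the most frequent base at each position gives ggcgCTGTCCatGGTGCTGaa. The element of SCN2A has this majority base at 5 of the 8 positions that are not fixed, and those of SCN1A and SCN3B have it at 3. For matches with 1 mismatch and 3 such bases the share in a site is 8.36% of 1843, and for matches without a mismatch it is 63.7% of 157 with 3 and 98.5% of 196 with 5. The majority bases come from the occupied matches without a mismatch, so the last 2 shares are a description of the same sites. The downstream SCN2B match also has 3 of these bases, as many as the SCN1A element, and the exon 4 match has 2. For matches with 1 mismatch and 2 such bases the share in a site is 1.61% of 2169.

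**Figure D5:**
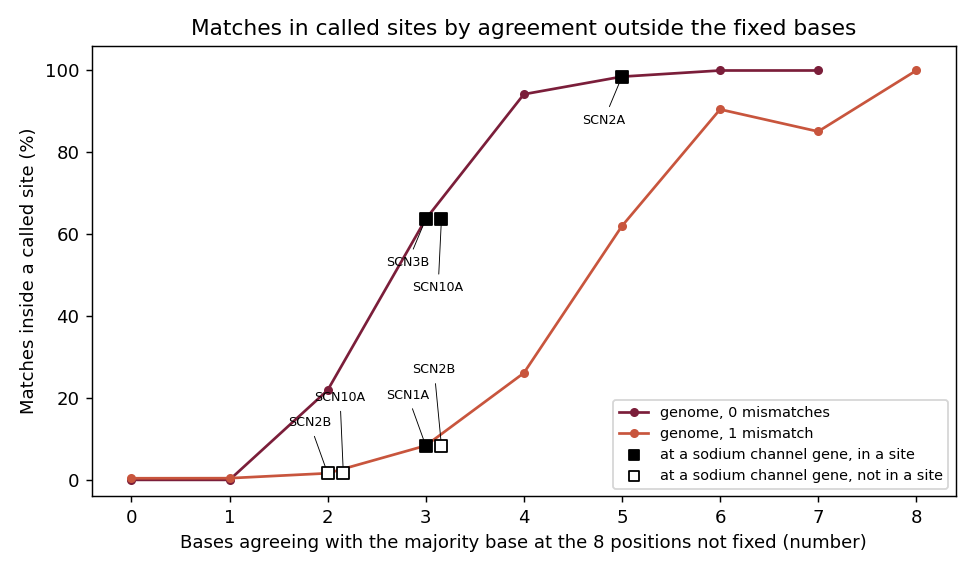
Share of consensus matches in the genome that lie in a called site at either dosage (%), by the number of majority bases at the 8 positions that are not fixed, for 0 and 1 mismatch (lines), with the matches at 12 sodium channel subunit genes as squares (filled where in a site, set side by side where they coincide). The SCN2A element lies where 98.5% of matches are in a site and the SCN1A element where 8.36% are; the point at 8 bases rests on 2 matches.

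A further 4 subunit genes were examined, SCN7A (a sodium-sensing channel), SCN10A and SCN11A of pain-sensing neurons, and the beta subunit SCN4B. In the basal list 1 of the 4 had a site, and in the increased list 2 did. Of all protein-coding genes 13.9% and 13.6% had one, and of those of 100 kb or longer 31.2% and 30.6%, respectively. SCN7A, SCN10A and SCN11A are of that length. SCN10A has a pair of sites at each dosage, and its site in intron 1, chr3:38847051-38847899 at the basal dosage (849 bp) and chr3:38847051-38847949 at the increased dosage (899 bp), is number 38 and number 35 of the lists. It comes before every site of the 8 genes in both. This site holds 2 consensus matches, each with 2 mismatches, whose centres lie 26 and 22 bp from the basal midpoint, on opposite sides. The site in intron 11 of SCN10A, chr3:38796601-38797049 and chr3:38796601-38796999, is 449 and 399 bp wide, number 2070 and 1695, and holds a match without a mismatch. The sequences are given because the earliest site of these 12 genes has a pair of imperfect elements and the later one a perfect match.

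SCN10A, intron 1, chr3:38847438-38847458, plus strand: tgcgCTaTCCatGGTtCTGaa

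SCN10A, intron 1, chr3:38847486-38847506, plus strand: tgagCTGaCCgtGGTaCTGaa

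SCN10A, intron 11, chr3:38796805-38796825, minus strand: ttccCTGTCCgtGGTGCTGag

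Outside the fixed bases, the intron 1 elements have the majority base at 7 and 5 of the 8 positions, in the order printed, and the intron 11 element has it at 3. The intron 11 element of SCN10A and the SCN2A element are identical at 17 of 21 bases, as are those of SCN10A intron 11 and SCN3B. SCN11A had a narrow site of 149 bp at the increased dosage only, in intron 7, with no consensus match. SCN7A and SCN4B had no site. Over the 12 subunit genes, 5 had a site in the basal and 7 in the increased list, and 5 had one in both. The shares were 13.9% (basal) and 13.6% (increased) of all protein-coding genes, and 31.2% and 30.6% of those of 100 kb or longer.

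Partners of the channels were examined as a further list of 12 genes: the intracellular fibroblast growth factor homologues FGF11, FGF12, FGF13 and FGF14, which bind the tail of alpha subunits, the ankyrins ANK2 and ANK3, the spectrin SPTBN4 and the adhesion molecules NFASC and NRCAM of the axon initial segment and node, and the leak channel NALCN with UNC79 and UNC80. At each dosage 9 of the 12 had a site, and 8 had one at both, beside the 31.2% and 30.6% of genes of 100 kb or longer, which all of the 12 are except FGF11. Many of the partners are far longer than 100 kb, up to 707.2 kb (ANK3), so this class is not matched to them in length. Per Mb of gene with 10 kb on either side, the partners had 4.178 (basal) and 3.382 (increased) sites. Over all protein-coding genes these values were 2.16 and 2.075, with a site counted once for each gene it was assigned to. FGF14 had 5 sites at the basal dosage, all shared, and 6 at the increased dosage. FGF12 had 5 and 3. The SPTBN4 site, 1149 and 999 bp wide, is the widest of this list and holds a match without a mismatch, as do sites of FGF12, FGF14, NRCAM and UNC79. The NFASC site in intron 1 (749 and 849 bp, number 348 and 383) holds a match with 1 mismatch, and that of UNC80 (599 and 749 bp, number 513 and 576), over its first exon, holds none with up to 2 mismatches. FGF13 had a site of 99 bp at both dosages. ANK3 had narrow sites of 149 and 99 bp at the basal dosage only and NALCN one of 149 bp, with a match of 2 mismatches, at the increased dosage only. Further sites at the basal dosage only were those of NFASC (249 bp, over its first exon), FGF12 (99 and 299 bp) and UNC79 (149 bp). FGF14 had one of 99 bp at the increased dosage only. FGF11 and ANK2 had no site, although ANK2 holds a match without a mismatch in intron 2 (chr4:114102637-114102651, plus strand).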

How the data were processed

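NRSF/REST ChIP-seq libraries of H295R/TR SF-1 cells were analysed, 1 per SF-1 dosage; the 2 input DNA libraries stayed out. Reads had been aligned by the authors to the hg19 genome using ELAND (CASAVA 1.6 in the submitters' processing notes), and each library has its own deposited list of called sites. The peak caller and settings used for NRSF/REST are not given in the sources used here, the methods naming them for the SF-1 data alone. The deposited score is 1000 for every site and carries no strength, and the other score column is the order number, whose basis is not given; depth is unknown.

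Starts were converted to a count from 1. Python 3.11.15 and numpy 2.4.6 were used with GENCODE release 44 mapped to hg19, whose sequence supplied all matches. Sites overlapping by at least 1 bp were called shared. SCN8A has no transcript tagged canonical, and its longest coding sequence was used. Consensus matches were counted over the whole genome, and RefSeq promoter sequences were placed in hg19 by exact match. On simulated data 200 of 200 planted matches and 500 of 500 overlaps were called correctly. Named genes were all listed genes, 4 further subunit genes and, of the partners, those with a site; partners without one are named to complete the list. Results at some other genes are not reported here. Members and lists were chosen with earlier results of these data known. No test was made between dosages or lists.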

Additional observations from a re-analysis of the deposited data

How the results depend on the processing

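Of 46 alternative values, 44 stayed within 1.5 times of the reported value, where a change of exactly 1.5 times counts as within. All called sites at the 8 genes lie inside them. Counting only sites inside the gene, within 2 kb or by midpoint therefore could not change the counts. Requiring midpoints within 100 bp left 4 shared sites in each list, in place of 6 (basal) and 5 (increased). Keeping the widest 50% of the list, or the first 50% by order number, left 5 basal sites at the 8 genes in place of 8, since both leave out its sites of 99 and 149 bp, and 4 genes then had a site at either dosage. The number of genes with a site reached 6 at either dosage when sites within 50 kb counted, because SCN9A and, at the basal dosage, SCN3A then take in a site of their neighbour. Without a mismatch, 2 sites at either dosage held the consensus, and with 3 mismatches 4 did. No paired analysis was possible because there is 1 library per dosage. With no read counts, how strongly a site was bound cannot be compared between dosages.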
